A study of Triticum aestivum and Triticum turgidum subsp. durum with 27 samples.

Results

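A sorbitol dehydrogenase, an NADP-dependent malic enzyme and the aldehyde dehydrogenase ALDH1a were followed through drought in wheat glumes, the green bracts that enclose the floret. Each is read from 1 probe set, and together they are 3 of the 61290 probe sets of the Affymetrix Wheat Genome Array. A probe set is named for a cluster of expressed sequences, the number of a sequence in it and a suffix. The sorbitol dehydrogenase is Ta.21428.1.S1_x_at, where the suffix _x_at marks probes that may match other transcripts. The malic enzyme is Ta.18775.1.S1_at, and ALDH1a is Ta.25596.3.A1_a_at, on sequence 3 of its cluster, where _a_at marks probes common to transcripts of 1 gene. All 3 passed the filter on low values. They were chosen by the study from these same arrays, for their differential expression in its drought comparisons and for the profile they follow over the genotypes and treatments. Their levels and differences are therefore a description here and carry no test.

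Sorbitol dehydrogenase oxidises the sugar alcohol sorbitol to fructose, with NAD as the electron acceptor, and so stands on the route by which a polyol returns to the hexose pool. NADP-dependent malic enzyme decarboxylates malate to pyruvate and yields NADPH and CO2. Aldehyde dehydrogenases oxidise reactive aldehydes, which build up when membranes are oxidised under stress, to carboxylic acids, and the Arabidopsis ALDH1a acts on the phenolic aldehydes coniferaldehyde and sinapaldehyde. The identities rest on the best Arabidopsis match that the study lists for each probe set. The study's text groups the malic enzyme probe set with the aldehyde dehydrogenases, while its list matches it to a chloroplast NADP-malic enzyme of Arabidopsis. The list is followed here.

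The glumes came from 3 genotypes. Creso is a durum wheat cultivar, a tetraploid with the A and B genomes. CS (Chinese Spring) is a hexaploid bread wheat and has the D genome as well, and CS_5AL-10 is 1 deletion line made in CS, which lacks the end of the 5AL chromosome arm. Each genotype was kept well watered (CTRL, 28% soil water content) or was left without water from 3 days after anthesis. Drying went on to 18% for moderate stress (MS) or 12.5% for severe stress (SS), which was then held by watering. Each of the 9 groups has 3 arrays. At the same soil water content the study measured a more negative leaf water potential in Creso than in the bread wheats. The genotypes are therefore not compared at equal leaf water status. Creso was sampled 7 days and both bread wheats 10 days post anthesis by the labels, the study's text gives other days, and stage and species vary together. Creso lacks the D genome, and the study states that sequence differences between the wheats might slightly inflate differences on this array. Between the species, less RNA, a missing gene copy and a mismatch to the probes therefore cannot be told apart for any probe set below. All values are MAS5 intensities on a linear scale, as deposited. Differences are on the log2 scale after an offset of 16 and centring of each array on the common median, with the standard error of a limma fit over all 27 arrays. Glume tissue is a mixture of cells, and fewer cells of a type and less RNA per cell cannot be told apart.

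Across all tested probe sets the arrays of a group correlated with each other at r between 0.908 and 0.975, and 17 of 27 arrays were closest to an array of their own group. The summed intensity of 34 photosynthesis probe sets, 31 of which the study had listed as drought-responsive, lay between 125551 and 413107 on every array. A list of 11 endosperm storage protein probe sets, which mark the developing grain, separated the samples otherwise. Its summed intensity was at most 590 on 8 of 9 Creso arrays and 13361 on replicate 1 of Creso MS, whereas in the bread wheats it ran from 392 to 99977 and differed widely among replicates. Several names in the list are of D genome genes, which Creso lacks. Between the species, less grain tissue and missing genes therefore cannot be told apart by this list. The part of grain tissue in the results below was not tested beyond the values given beside them.

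Sorbitol dehydrogenase was higher on every SS array than on any CTRL array of the same genotype. In CS_5AL-10 the well watered arrays read 5214, 4595 and 3765, the moderately stressed ones 7548, 6630 and 7879 and the severely stressed ones 9956, 10848 and 10707. These 3 groups did not overlap, and the SS mean of 10504 ± 479 (SD, n = 3) stood against 4524 ± 727 in CTRL. In CS it read 5766, 4820 and 5128 when watered, then 7651, 6181 and 6102 under MS, and 8880, 11385 and 11409 under SS. The groups again followed each other without overlap, with replicate 1 of CS SS the lowest of its group. In Creso it read 8045, 6872 and 7829 when watered, then 6565, 9082 and 7089 under MS, and 10405, 10160 and 10875 under SS. The CTRL arrays of Creso lay inside the range of its MS arrays, and the SS arrays stood above both.

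For the log2 difference of sorbitol dehydrogenase between SS and CTRL, CS_5AL-10 had 1.30 ± 0.17 (SE), CS 1.05 ± 0.17 and Creso 0.60 ± 0.17, that is 2.46-, 2.07- and 1.52-fold. Under MS the differences were 0.67, 0.51 and 0.06 in the same order, each with an SE of 0.17, and the last of these was -0.01 without centring. The step from MS to SS was 0.63, 0.54 and 0.54. In the well watered plants Creso minus CS and Creso minus CS_5AL-10 had the sizes 0.78 ± 0.17 and 0.96 ± 0.17, which were 0.53 and 0.75 without centring and 0.40 and 0.58 under quantile normalization.

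Ordered by mean intensity, the 9 groups ran from CS_5AL-10 CTRL (4524) and CS CTRL (5238) through CS MS (6645), CS_5AL-10 MS (7352), Creso MS (7579) and Creso CTRL (7582) to Creso SS (10480), CS_5AL-10 SS (10504) and CS SS (10558). Neighbours in this order overlapped, apart from the steps from CS CTRL to CS MS and from Creso CTRL to Creso SS. The 3 SS groups overlapped as deposited. After centring, the SS level of CS was 0.32 below that of Creso, without centring the difference was 0.00 and under quantile normalization it was 0.14 above, so that no order among the genotypes under SS can be given for this enzyme.

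Malic enzyme was also higher on every SS array than on any CTRL array of its genotype, and its mean signal was lower in durum wheat than in bread wheat at each treatment. In CS it read 1173, 1045 and 1100 when watered, then 1678, 1778 and 1782 under MS, and 2400, 2399.5 and 2424 under SS. The 3 treatments were fully separated, and the SS arrays had an SD of 13.7 around a mean of 2408. In CS_5AL-10 it read 1143, 1146 and 1158 when watered, then 1447, 1527 and 2407.5 under MS, and 2519, 2575 and 2256 under SS. Here replicate 3 of MS reached the SS range while the other MS arrays lay between CTRL and SS. In Creso it read 782, 498 and 636 when watered, then 729, 1007 and 909 under MS, and 1095, 1100.1 and 1245 under SS. The SS arrays of Creso stood above all CTRL and MS arrays of Creso, and replicate 1 of MS fell among the CTRL arrays.

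For the log2 difference of malic enzyme between SS and CTRL, CS had 1.16 ± 0.21, CS_5AL-10 1.15 ± 0.21 and Creso 0.98 ± 0.21. The response of CS minus that of Creso was 0.18 ± 0.30. The MS differences were 0.83, 0.56 and 0.54 in the same order, each with an SE of 0.21. The mean level was lowest in Creso at every treatment. CS lay above Creso by 0.56 in CTRL, 0.84 in MS and 0.74 in SS, and CS_5AL-10 by 0.64, 0.66 and 0.82 (SE 0.21 each). This direction held with and without centring and under quantile normalization. Single arrays overlapped after centring, in CTRL between Creso (9.03 to 9.88 on the log2 scale) and CS (9.83 to 10.15). In MS they did so between Creso (9.53 to 10.34) and CS_5AL-10 (10.24 to 11.14). As deposited, the severe stress mean of Creso was 1147 ± 85.5 and the well watered means of CS and CS_5AL-10 were 1106 ± 63.9 and 1149 ± 7.87. After centring, Creso SS (10.34 to 10.56 on the log2 scale) stood above both, at 9.83 to 10.15 and 10.04 to 10.13.

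In the order of the 9 groups by deposited intensity, malic enzyme was lowest in Creso CTRL (638.5) and Creso MS (881.6), which overlapped. Without overlap to these followed CS CTRL, Creso SS and CS_5AL-10 CTRL, which overlapped in turn. CS MS (1746) and CS_5AL-10 MS (1794) came next, above them and overlapping each other, and CS SS (2408) and CS_5AL-10 SS (2450) closed the order. The overlap of CS_5AL-10 MS with CS SS rested on replicate 3 of CS_5AL-10 MS. Centring changed the middle of the order, where CS CTRL then overlapped Creso MS (9.53 to 10.34) and Creso SS followed CS_5AL-10 CTRL without overlap.

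**Figure D1:**
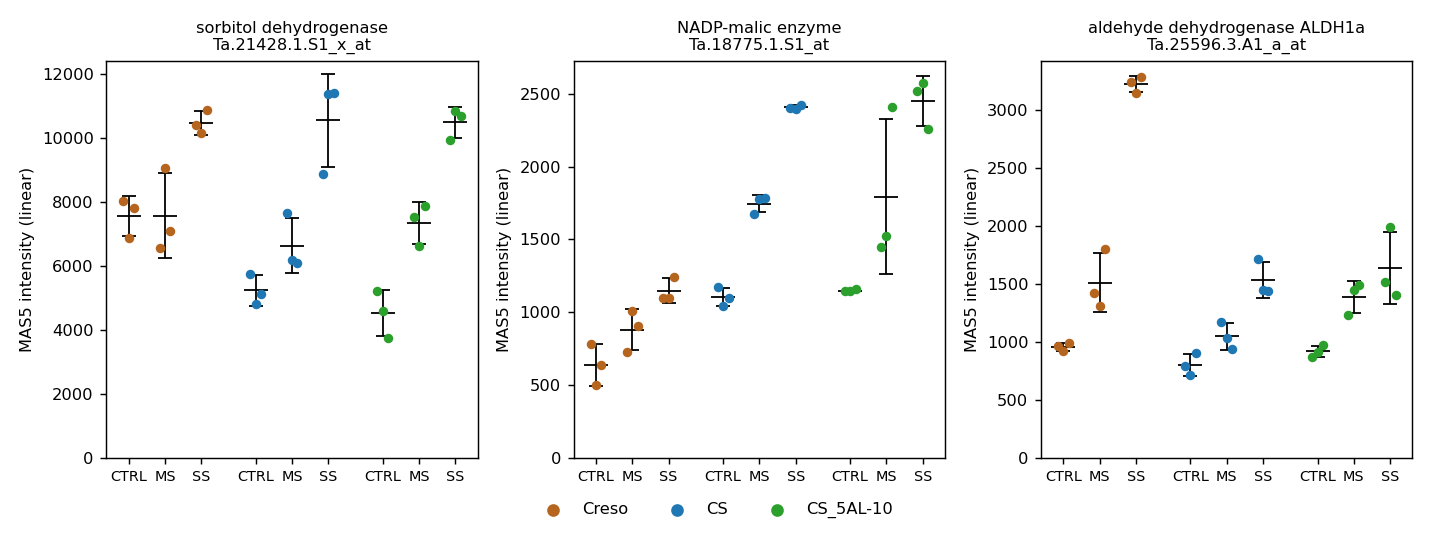
MAS5 intensity (linear axis from 0) of the 3 probe sets on each of the 27 arrays, by treatment and genotype. Points are single arrays, horizontal bars are group means and error bars are SDs (n = 3). The ALDH1a probe set reached 3154 to 3290 in Creso SS and at most 1992 elsewhere, whereas malic enzyme was lowest in Creso.

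ALDH1a had its highest level in severely stressed durum wheat. In Creso it read 967, 924 and 993 when watered, then 1427, 1310 and 1802 under MS, and 3245, 3154 and 3290 under SS. The treatments did not overlap, and the 3 SS arrays of Creso stood above the other 24 arrays, the highest of which was 1992. In CS it read 793, 713 and 906 when watered, then 1170, 1034 and 942 under MS, and 1715, 1447 and 1443 under SS, again in 3 separate groups. In CS_5AL-10 it read 873, 916 and 971 when watered, then 1232, 1450 and 1490 under MS, and 1521, 1992 and 1404 under SS. The MS and SS arrays of the deletion line overlapped, and both lay above its CTRL arrays.

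For the log2 difference of ALDH1a between SS and CTRL, Creso had 1.86 ± 0.16, CS 0.97 ± 0.16 and CS_5AL-10 0.88 ± 0.16, or 3.64-, 1.96- and 1.84-fold. The MS differences were 0.71, 0.55 and 0.55, each with an SE of 0.16. The step from MS to SS was 1.16 in Creso against 0.42 in CS and 0.34 in CS_5AL-10. In well watered plants the mean was 961.3 ± 34.6 in Creso against 803.9 ± 96.8 and 920 ± 48.9 in CS and the deletion line. The log2 difference of CS minus Creso there was -0.50 ± 0.16, with no overlap of the arrays, and -0.26 without centring. For CS_5AL-10 minus Creso it was -0.28 ± 0.16 and -0.06 without centring. Under SS, CS was 1.40 ± 0.16 and CS_5AL-10 1.26 ± 0.16 below Creso. As log2 differences from Creso these were -1.07 and -0.99 without centring and -1.0 and -0.92 under quantile normalization. The difference between the SS responses was -0.89 ± 0.23 for CS minus Creso and -0.98 ± 0.23 for CS_5AL-10 minus Creso. In the same order it was -0.81 and -0.92 without centring and -0.69 and -0.77 under quantile normalization.

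By deposited intensity, the order of the groups for ALDH1a began with the 3 CTRL groups and CS MS (1049), which overlapped in turn. It went on with CS_5AL-10 MS (1390), Creso MS (1513), CS SS (1535) and CS_5AL-10 SS (1639), which overlapped as well. Creso SS (3229) stood apart above them, also after centring, while Creso CTRL then stood above the CTRL groups of the bread wheats and Creso MS came next to Creso SS.

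All 3 probe sets were higher on every SS array than on every CTRL array in each genotype. Of all tested probe sets 15.9% were so in Creso and 17.4% in CS, and the share in CS_5AL-10 was 16.5%. Under MS this held for 1 of the 3 in Creso, ALDH1a, where the share of all tested probe sets was 8.12%. It held for all 3 in CS (12.4% of tested probe sets) and in CS_5AL-10 (15.3%). These contrasts were used in choosing the 3 probe sets, and nothing is read from the counts. Between CS_5AL-10 and CS the log2 differences of the 3 probe sets lay from -0.19 to 0.23 over the 3 treatments, with SEs from 0.16 to 0.21. That of ALDH1a under MS, at 0.22, was 0.40 without centring and 0.43 under quantile normalization. As deposited, its MS arrays read 942 to 1170 in CS and 1232 to 1490 in CS_5AL-10.

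**Figure D2:**
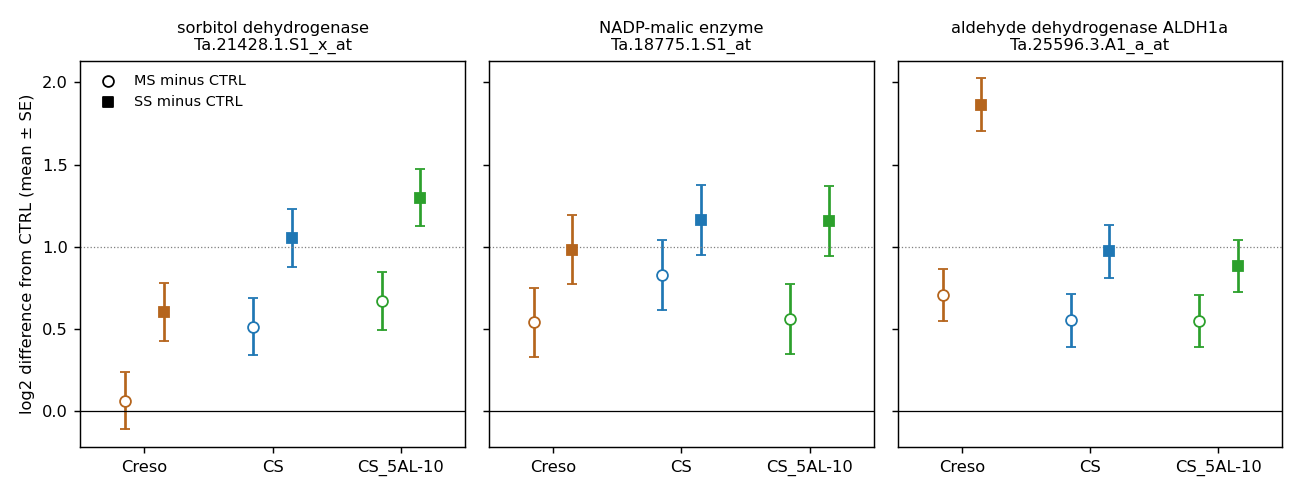
Log2 difference from CTRL (vertical axis, mean ± SE from the limma fit) under MS (open circles) and SS (filled squares) for each genotype. The dotted line marks a 2-fold difference. Sorbitol dehydrogenase was at 0.06 under MS in Creso, and ALDH1a at 1.86 under SS in Creso.

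The photosynthesis list moved in the same direction as the 3 probe sets. Its mean log2 level ran from 10.33 to 11.11 in CS CTRL and from 11.79 to 12 in CS SS, from 9.99 to 10.43 in CS_5AL-10 CTRL and from 11.21 to 11.62 in CS_5AL-10 SS, and from 11.34 to 11.95 in Creso CTRL and from 12.04 to 12.22 in Creso SS. Over the 9 arrays of a genotype, which share their treatments, r with this mean was between 0.73 and 0.928 for sorbitol dehydrogenase, between 0.853 and 0.937 for malic enzyme and between 0.724 and 0.899 for ALDH1a. Its part in the results was not tested. The endosperm list had negative r with all 3 probe sets within each genotype, between -0.57 and -0.14. In Creso its mean log2 level was 5.18 to 5.47 in CTRL and 5.05 to 6.02 in SS, and MS replicate 1 stood out at 8.41. The highest level of all arrays, 11.34, was on replicate 2 of CS_5AL-10 SS. With the mean endosperm level as a covariate in the fit, the SS differences were 1.26, 0.98 and 0.60 for sorbitol dehydrogenase in CS_5AL-10, CS and Creso, 1.09, 1.03 and 0.99 for malic enzyme and 0.89, 0.99 and 1.86 for ALDH1a.

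The 3 enzymes tracked each other within a genotype, and malic enzyme followed the others less closely over all arrays. Sorbitol dehydrogenase and malic enzyme had r = 0.416 over the 27 arrays and 0.896, 0.919 and 0.921 within Creso, CS and CS_5AL-10, where 9 arrays with the same 3 treatments enter. For malic enzyme and ALDH1a r was 0.297 over all arrays and 0.86, 0.939 and 0.92 within the genotypes. Sorbitol dehydrogenase and ALDH1a were alike over all arrays (r = 0.796), and within Creso, CS and CS_5AL-10 r was 0.78, 0.904 and 0.881. For the deviations from the group means, which no longer hold treatment or genotype, r was 0.681 between sorbitol dehydrogenase and malic enzyme, 0.563 between malic enzyme and ALDH1a and 0.253 between sorbitol dehydrogenase and ALDH1a. These are descriptions over arrays that share scaling and groups, and no p is given.

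**Figure D3:**
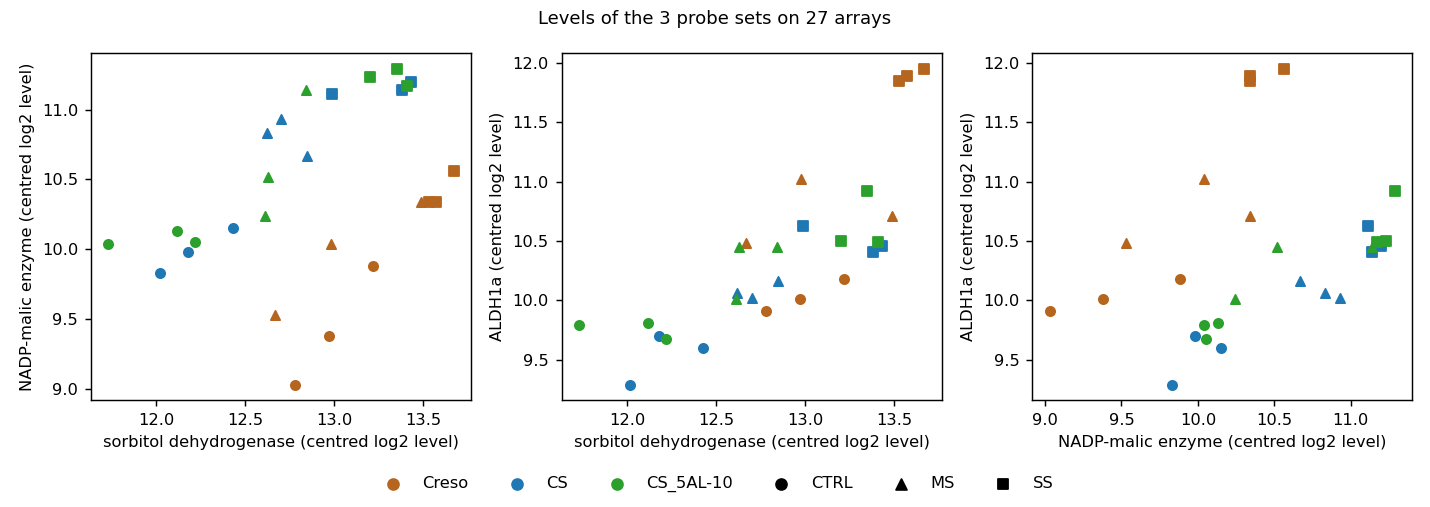
Centred log2 levels of each pair of the 3 probe sets on 27 arrays, with colour for genotype and symbol for treatment. In the panel of malic enzyme against sorbitol dehydrogenase the Creso arrays lie below the bread wheat arrays of like sorbitol dehydrogenase level, with r of 0.896 within Creso and 0.416 over all arrays.

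Among the tested probe sets with a name outside its own cluster, sorbitol dehydrogenase was most like 2 expressed proteins (r = 0.945 and 0.932), a putative phosphoglycolate phosphatase of photorespiration (r = 0.943), a ferredoxin-related protein (r = 0.929) and a putative fructose-1,6-bisphosphatase (r = 0.918). Malic enzyme was most like a thioredoxin family protein (r = 0.903), an expressed protein (r = 0.895), a transcription factor-related protein (r = 0.877), a sucrose-phosphate synthase-like protein (r = 0.875) and a putative alpha-amylase (r = 0.869). ALDH1a was most like a pair of haloacid dehalogenase-like hydrolases (r = 0.946 and 0.921), a Rieske domain protein (r = 0.925), a putative sucrose synthase (r = 0.924) and a nitrate transporter (r = 0.921). All r are over 27 arrays, and most names come from the study's own list of drought-responsive probe sets. For comparison, the median r with all other tested probe sets was 0.191 for sorbitol dehydrogenase, -0.047 for malic enzyme and 0.216 for ALDH1a. The number of tested probe sets with r over 0.9 was 43, 5 and 34.

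The cluster of sorbitol dehydrogenase holds 1 more probe set, with the suffix _at and the same sequence number, which was not in the portion of the study's list held here and followed the _x_at probe set with r = 0.977. It went from 3174 ± 604 in CTRL to 8176 ± 91.2 in SS in CS_5AL-10, from 3813 ± 433 to 7849 ± 1106 in CS and from 5620 ± 684 to 7984 ± 616 in Creso. Its Creso MS mean was 5348 ± 617, so that the lack of a step under MS in Creso appeared in both probe sets of the cluster. Both are drawn from 1 sequence and are not independent of each other.

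The ALDH1a cluster holds 4 more probe sets, which did not behave alike. The probe set of sequence 1, which was not in the portion of the study's list held here, differed between the species. In well watered plants Creso read 114, 331 and 152, CS 1020, 1184 and 1172, and CS_5AL-10 1243, 1160 and 1516. The highest of all 9 Creso arrays was 330.6 and the lowest of the 18 bread wheat arrays was 1000.2. In CTRL plants the log2 difference was 2.29 ± 0.27 for CS minus Creso (limma adjusted p = 2.82e-07) and 2.53 ± 0.27 for CS_5AL-10 minus Creso (adjusted p = 4.96e-08). Between the species, however, 30.9% and 31.1% of all tested probe sets passed the same test in these comparisons. For its SS minus CTRL difference, Creso had 0.42 ± 0.27, CS 0.10 ± 0.27 and CS_5AL-10 0.40 ± 0.27, and none passed the test.

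The probe set of sequence 2 and the _x_at probe set of sequence 3, which the study had listed as drought-responsive, rose in Creso under SS, by 1.27 ± 0.28 and 1.16 ± 0.21 (limma adjusted p = 0.00284 and 0.000527). The former went from 372.1 ± 46.4 in CTRL to 847.4 ± 171 in SS and the latter from 317.9 ± 83.3 to 653.5 ± 83.3. In the bread wheats their SS differences were between 0.56 and 0.69 and did not pass the test. The difference between the SS responses of the species did not pass either for these probe sets, with adjusted p between 0.305 and 0.488. The _at probe set of sequence 3 lay between 19.9 and 174 on all arrays, and its SS minus CTRL differences of 1.19, 0.38 and 1.06 (SE 0.43) in Creso, CS and CS_5AL-10 did not pass.

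**Figure D4:**
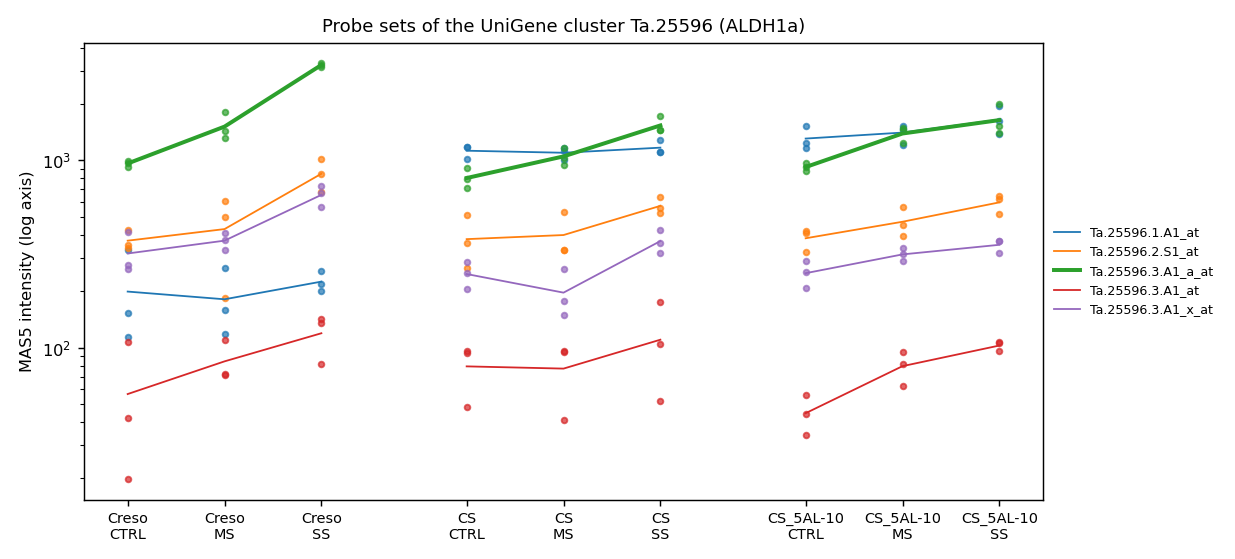
MAS5 intensity (log axis) of the 5 probe sets of the ALDH1a cluster, with points for single arrays and lines through the group means of each genotype. The number after the cluster name in each label is the sequence number, and the thick line is the _a_at probe set of sequence 3. Sequence 1 lies at 114 to 331 in Creso and at 1000 to 1944 in the bread wheats. Heights are compared within a probe set only, since probe sets differ in their response to RNA.

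Around the 3 enzymes stand other probe sets of polyol, aldehyde, malate and betaine metabolism, of which 20 were reached by name. Names came from the platform, for 1273 of 61290 probe sets, and from the portion of the study's list held here. That portion has 1420 probe sets and is cut off by ID. The 20 are therefore not all probe sets of these pathways on the array. All 20 were tested, and the study had listed every one of them as drought-responsive on these arrays, so that their counts are not independent evidence of a response. Between SS and CTRL, 12 of 20 passed the test in Creso (adjusted p under 0.05 and at least 2-fold), 8 higher and 4 lower, where 7.32% of all tested probe sets did. In CS 10 passed, 4 higher and 6 lower (5.87% of all), and in CS_5AL-10 10 passed, 5 higher and 5 lower (5.69% of all). For the median log2 difference over the 20, Creso had 0.56, CS 0.15 and CS_5AL-10 0.56, against 0.13, 0.06 and 0.06 over all tested probe sets. Without replicate 3 of CS CTRL 6 passed in CS, and without replicate 1 of CS SS 4 did.

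Between MS and CTRL, 3 of the 20 were higher and 0 lower in Creso (1.28% of all tested probe sets passed), 0 higher and 4 lower in CS (2.32%) and 3 higher and 3 lower in CS_5AL-10 (2.28%). In CS 0 passed without replicate 2 or replicate 3 of CS CTRL or replicate 2 of CS MS, and 2 without replicate 1 of CS MS. In CS_5AL-10 it was 3 without replicate 1 or 2 of CTRL and 2 without replicate 3 of CTRL or replicate 1 or 2 of MS. After Benjamini-Hochberg adjustment of the methods' t-test 0 of the 20 passed in any of the 6 comparisons. At an unadjusted p under 0.05 and at least 2-fold it called 12, 7 and 7 under SS in Creso, CS and CS_5AL-10 and 4, 2 and 7 under MS.

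Of the 3 other aldehyde dehydrogenase probe sets in the list, 3 rose in Creso under SS (7.32% of all tested probe sets passed), and 0 passed in CS (5.87%) or CS_5AL-10 (5.69%). The difference between the SS responses did not pass for the pair of the ALDH1a cluster, as given above. Beside the pair of the ALDH1a cluster this was an antiquitin-like aldehyde dehydrogenase, a class of enzymes that oxidises the semialdehyde of lysine breakdown. It went from 1015 ± 272 to 3225 ± 1116 in Creso, with a log2 difference of 1.77 ± 0.27 (limma adjusted p = 0.0001005). In CS_5AL-10 the difference was 0.20 ± 0.27, and the SS response of CS_5AL-10 lay 1.57 ± 0.38 below that of Creso (interaction in limma, adjusted p = 0.0213), where 2.79% of all tested probe sets passed. The SS response of CS minus that of Creso was -1.06 ± 0.38 and did not pass, where 2.53% did.

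Of the 12 other polyol probe sets in the list, 4 belong to 1 cluster matched to an aldo/keto reductase of the aldose reductase type, an enzyme that reduces sugars to sugar alcohols such as sorbitol. All 4 passed the test as higher under SS in CS (5.87% of all tested probe sets passed) and CS_5AL-10 (5.69%). They share 1 cluster and are not independent. Replicate 2 of CS SS was the lowest of its group for all 4. For sequence 3 it read 439.7, against 430.7 on the highest CS CTRL array. In Creso 3 of the 4 passed as higher (7.32%), by up to 2.64 ± 0.30 for sequence 2 of the cluster. That probe set went from 398.8 ± 27.6 in CTRL to 2377 ± 515 in SS. The exception in Creso was the _at probe set of sequence 1, at 63.7 ± 14.8 in CTRL and 102 ± 28.4 in SS. Its CTRL level lay close to the Creso array medians of 59.1 to 79.7. The same probe set measured 429 ± 64.3 in CTRL and 1311 ± 780 in SS in CS, and 651 ± 134 and 1851 ± 520 in CS_5AL-10.

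Other polyol probe sets fell. The _at probe set matched to the Arabidopsis polyol symporter AtPLT5 of the plasma membrane went from 2759 ± 348 in CTRL to 745.5 ± 330 in MS and 312.2 ± 53.4 in SS in CS_5AL-10, and from 748 ± 152 to 201 ± 104 and 233 ± 164 in CS. It was low, between 30.8 and 138, on all arrays of Creso, whose array medians were 59.1 to 79.7. Whether a fall could be measured at this level was not tested. Its partner with the suffix _x_at also fell in both bread wheats. This partner was 1.61 ± 0.44 higher in Creso SS than in Creso CTRL (limma adjusted p = 0.0161), at 227 ± 62.2 against 72.7 ± 32.2. The call was lost in 5 of 15 alternatives, and the same difference of the _at probe set was -0.04 ± 0.51. A putative mannitol dehydrogenase fell by 2.04 ± 0.39 in CS and by 1.17 ± 0.39 in Creso (limma adjusted p = 0.0466), where the call was lost in 9 of 15 alternatives. In CS_5AL-10 its difference was -1.18 ± 0.39 and did not pass (adjusted p = 0.0517). Its readings there were low, at 25.9 to 76.1 on the CTRL arrays, below their medians of 82.5 to 89.8, and 1.51 to 33 on the SS arrays. Sequence 1 of a further aldo/keto reductase cluster fell by 1.71 ± 0.36 in CS_5AL-10. In Creso and CS it fell by 1.25 and by 1.20, and these calls were lost in 6 and 8 of 14 alternatives. The mannitol dehydrogenase matched to Arabidopsis ELI3-1 did not pass in any genotype, with SS differences of 1.01, -1.01 and -0.98 in Creso, CS and CS_5AL-10.

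For malate and pyruvate metabolism the list of related probe sets holds 4 others. PEP carboxylase, which fixes bicarbonate on phosphoenolpyruvate to give oxaloacetate and so feeds the malate pool, rose under SS in CS_5AL-10, from 539.6 ± 129 to 1233 ± 86.6 (1.27 ± 0.21, limma adjusted p = 0.000222). Its SS differences in CS (0.62 ± 0.21) and Creso (0.43 ± 0.21) did not pass. PEP carboxykinase, which draws on oxaloacetate to make phosphoenolpyruvate, has 3 probe sets in the list. Sequence 2 of its cluster fell in Creso from 4303 ± 914 to 1843 ± 398, and sequence 3 fell in CS from 556 ± 189 to 149.5 ± 18.5. Sequence 1 did not pass under SS in any genotype and was higher under MS in CS_5AL-10, at 2501 ± 460 against 994.9 ± 104.

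In the synthesis of glycine betaine, phosphoethanolamine N-methyltransferase makes the precursor of choline. Its probe set rose in Creso from 547 ± 281 in CTRL to 2544 ± 673 in MS and 1476 ± 246 in SS, and its SS differences of 0.53 ± 0.41 in CS and 1.07 ± 0.41 in CS_5AL-10 did not pass. Betaine aldehyde dehydrogenase, which the study also named from these arrays and which makes glycine betaine itself, went from 3562 ± 312 to 7430 ± 1488 under SS in CS_5AL-10 and passed there (1.11 ± 0.15, adjusted p = 3.48e-05). In CS and Creso its SS differences were 0.93 ± 0.15 and 0.83 ± 0.15, with adjusted p of 0.000344 and 0.000711 but under the 2-fold limit.

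**Figure D5:**
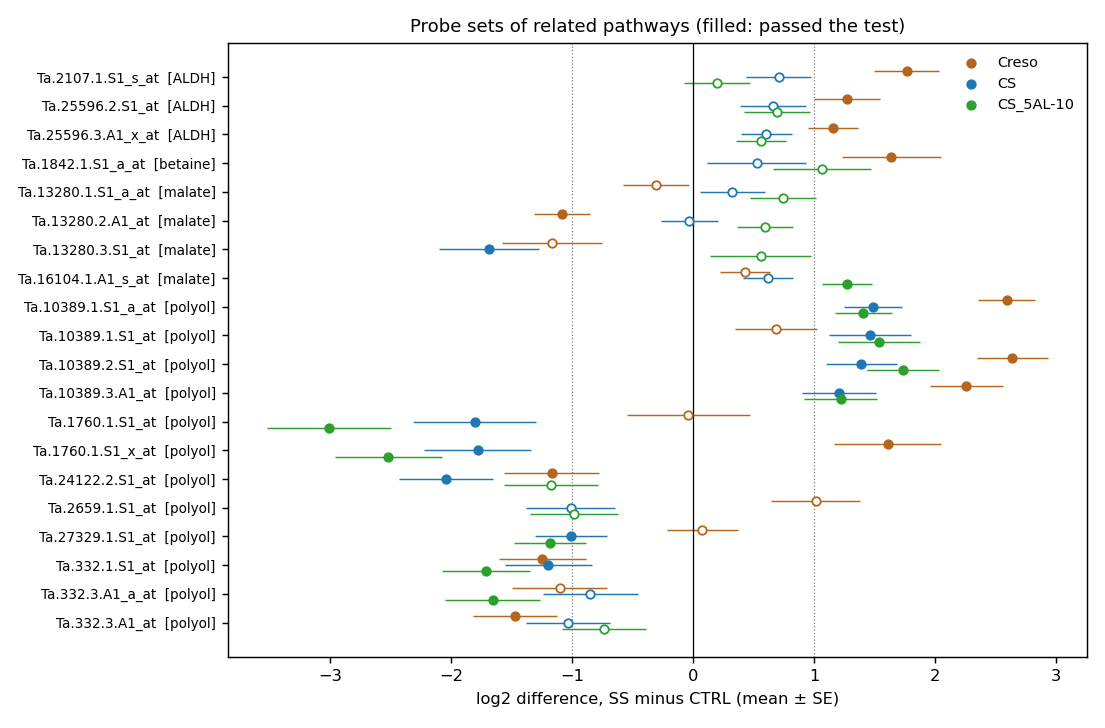
Log2 difference between SS and CTRL (horizontal axis, mean ± SE) for the 20 related probe sets in each genotype. Filled points passed the test and open points did not, and dotted lines mark a 2-fold difference. The 3 aldehyde dehydrogenase probe sets are filled in Creso, and the _at probe set of the polyol symporter reaches -3.01 in CS_5AL-10.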

How the data were processed

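RNA of glumes was hybridised by the authors to 27 Affymetrix Wheat Genome Arrays, 3 for each genotype and treatment. The authors deposited 1 table of linear MAS5 intensity values per probe set and array (version not given in the sources used here), while the study's own results were made with RMA. The deposited trimmed mean is 500.2 to 500.3 on every array. Samples were grouped by genotype and treatment as their titles give them. For CS_5AL-10 a genotype label reads CS, and the titles were followed. The study describes biological replicates.

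Values were taken to log2(value + 16) and centred on the common array median, since array medians ran from 59.1 to 99.1 (1.68 times, over the limit of 1.5). This moved the median of all tested probe sets by up to 0.34 between the species and by 0.13 for SS minus CTRL in Creso. The 111 control probe sets were dropped, and 34089 of 61179 that lay above the array median on all 3 arrays of a group were tested. A group-means model was fitted with limma 3.58.1 in R 4.3.3 with a variance trend, Benjamini-Hochberg adjustment, and a call at adjusted p under 0.05 and at least 2-fold. The code was tested on simulated data. Correlations were computed in Python 3.11.15. The number of arrays limits the precision.

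The members and gene lists were chosen with earlier results of these data known. Lists were made by name patterns on platform symbols, RefSeq synonyms (IWGSC assembly of Chinese Spring) and the study's Arabidopsis matches, of which 1067 were held. The photosynthesis list was trimmed by name. Named probe sets are the 3 members, those of their clusters, those the study names for the same pathways, the 5 most alike with a name, and of each list up to 6 called with the largest SS change and up to 2 uncalled with the highest mean. The aldo/keto reductase that fell in all genotypes and the mannitol transporter lie beyond this limit and were named after their values were seen. Alternatives were an offset of 1 or 64, no centring, quantile normalization, a replicate block, a fit per genotype, no filter or a 75th percentile filter, no fold limit, the methods' t-test and leaving out each array. An endosperm covariate was added after seeing the data.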

Additional observations from a re-analysis of the deposited data

Results flagged for a closer look

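The SS response differed between genotypes, by the interaction term of the limma fit with Benjamini-Hochberg adjustment, for 2 of the 20 related probe sets in CS against Creso, where 2.53% of all tested probe sets passed, and for 5 of 20 in CS_5AL-10 against Creso, where 2.79% did. Both comparisons share the Creso arrays. For the _x_at probe set of the polyol symporter the log2 response was -3.39 ± 0.63 for CS minus Creso (adjusted p = 0.00362) and -4.13 ± 0.63 for CS_5AL-10 minus Creso (adjusted p = 0.000385). For its _at partner it was -2.97 ± 0.72 for CS_5AL-10 minus Creso (adjusted p = 0.0207). The _at probe set read 30.8 to 138 on the Creso arrays and the _x_at probe set 50 to 109.5 on those of Creso CTRL, against array medians of 59.1 to 79.7 in Creso. The part of this low level in Creso in the sizes of these differences was not tested. For the ELI3-1-like mannitol dehydrogenase it was -2.03 ± 0.52 for CS minus Creso (adjusted p = 0.0324) and -2.00 ± 0.52 for CS_5AL-10 minus Creso (adjusted p = 0.0307). This probe set read 47.5 to 140.7 on the Creso CTRL arrays, also near the array medians of Creso. The part of that low level in the sizes of its differences was not tested either. The antiquitin-like aldehyde dehydrogenase gave -1.57 ± 0.38 (adjusted p = 0.0213) and sequence 2 of PEP carboxykinase 1.68 ± 0.33 (adjusted p = 0.00472), both for CS_5AL-10 minus Creso. The calls of the ELI3-1-like enzyme were lost in 8 and 6 of 20 alternatives, those of the antiquitin-like enzyme and of the _at symporter probe set in 4 of 20 each, and those of the _x_at probe set and PEP carboxykinase in 0. With 3 arrays in each group no test for a single outlying array was made.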

How the results depend on the processing

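The SS minus CTRL differences of the 3 members kept their sign under every alternative run. For ALDH1a in Creso the value was 1.86, and 1.63 under quantile normalization and 1.73 without centring. For malic enzyme it was 1.03 in CS with the endosperm covariate, and in CS_5AL-10 1.10 with an offset of 64, 1.08 without centring and 1.09 with the covariate. Leaving out 1 array at a time gave 0.50 to 0.72 in Creso, 0.96 to 1.19 in CS and 1.15 to 1.40 in CS_5AL-10 for sorbitol dehydrogenase. It gave 0.78 to 1.21, 1.09 to 1.24 and 1.13 to 1.18 for malic enzyme and 1.80 to 1.94, 0.85 to 1.06 and 0.74 to 0.95 for ALDH1a. The direction of sorbitol dehydrogenase changed with the scaling (none or quantile) between genotypes in SS, in MS for CS_5AL-10 against CS and against Creso, and for MS minus CTRL in Creso. That of malic enzyme did so in MS for CS_5AL-10 against CS and for the difference of their SS responses, both within 1 SE of 0, and that of ALDH1a in no comparison.

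The counts of the 20 related probe sets ran, with 1 array left out, from 8 to 12 (Creso), 4 to 9 (CS) and 9 to 11 (CS_5AL-10) under SS and from 2 to 3, 0 to 3 and 2 to 4 under MS. The methods' t-test gave 0 in all 6 comparisons after adjustment, and at an unadjusted p under 0.05 2 under MS in CS, where an offset of 1 and no filter also gave 2. Of 78 calls of named probe sets, 41 passed under every alternative other than that t-test. The t-test was run for 71 of these calls, and after adjustment 11 were kept under it. The likeness of sorbitol dehydrogenase and malic enzyme was 0.546 under quantile normalization and 0.896, 0.919 and 0.921 within Creso, CS and CS_5AL-10. That of malic enzyme and ALDH1a was 0.481 by Spearman's rho and 0.86, 0.939 and 0.92 within them, and that of sorbitol dehydrogenase and ALDH1a 0.904 within CS.

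The replicate numbers do not pair the samples, since same-numbered arrays deviated with r from -0.566 to 0.205 and 6 of 27 such pairs lay over 0.1. With the replicate number as a block within genotype the counts were 13, 11 and 11 under SS and 3, 3 and 5 under MS in Creso, CS and CS_5AL-10, and the differences of the members were the same as without it.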

Other observations

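In well watered plants 8 of the 20 related probe sets passed the test for CS minus Creso and 9 for CS_5AL-10 minus Creso, comparisons in which 30.9% and 31.1% of all tested probe sets passed. A putative mannitol transporter read 104 ± 18.8 in Creso against 2180 ± 616 in CS and 2959 ± 239 in the deletion line, and was 3.92 ± 0.30 (log2, limma adjusted p = 1.12e-10) higher in CS than in Creso. The putative mannitol dehydrogenase that fell under SS in Creso and CS was higher in Creso, at 641.6 ± 42.2, than in CS (289.6 ± 69.9, adjusted p = 0.00564) or CS_5AL-10 (51.5 ± 25.1, adjusted p = 5.67e-08). Phosphoethanolamine N-methyltransferase differed by -1.71 ± 0.41 for CS minus Creso (adjusted p = 0.00131) and by -2.45 ± 0.41 for CS_5AL-10 minus Creso (adjusted p = 2.42e-05).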
